A study of Mus musculus with 18 samples.

Results

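Mouse cells of the TKO line that carried p53ER were compared after 4 h with 100 nM 4-hydroxytamoxifen (4-OHT) and at 0 h, each with 3 Affymetrix arrays. These 6 arrays of the 18 in the series were taken by the titles of the samples, and the change was read within pairs of the same replicate number. TKO is labelled as a line with telomere dysfunction, and the labels say neither what the letters stand for nor what tissue it came from. p53ER is a fusion of p53 with an estrogen receptor and needs 4-OHT to work. The 0 h cells also carried p53ER, had received no 4-OHT and had not spent the 4 h in culture, so the comparison holds p53 activation and the culture change together. All cells grew in DMEM with 10% serum. As other groups of 3 arrays, p53ER cells had 4 h with vehicle (no 4-OHT), and uninfected TKO cells had 0 h, 4 h with 100 nM 4-OHT and 4 h with vehicle. No cells with an empty vector are labelled, so uninfected cells differ from p53ER cells by the infection as well as by the fusion. Whether replicates came from separate cultures is not labelled, and the p-values reflect only how far these arrays differ, a spread that may be technical.

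The tumour suppressor p53 is a transcription factor that binds DNA as a tetramer, and its binding element is made of a pair of adjacent decamers. Its best known targets act in 3 ways: Mdm2 returns a signal that degrades p53, Cdkn1a stops the cell cycle, and Pmaip1 promotes cell death. Fused to an estrogen receptor, p53 is held inactive by chaperones until a ligand such as 4-OHT binds. Lif and Il11 encode cytokines of the interleukin-6 family, which act on neighbouring cells through the shared receptor chain gp130 and the transcription factor STAT3. Lif has also been described as a p53 target in the mouse uterus.

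Levels are given as log2 of the scaled signal plus a small offset, so that a difference of 1 is a doubling, and each gene was read by its brightest probe set. Before scaling, the trimmed mean signal ran from 64.9 to 148 on the 0 h arrays and from 73.5 to 82.9 on the 4-OHT arrays. The 0 h replicate 3 array stood apart from its group on the first principal component of all arrays (27.3, against -11.1 and -12.3), which held 23.9% of the variance, and of the 6 it correlated least with the other arrays (median r 0.919). Of the arrays in other groups, p53ER vehicle replicate 1 (53.3, median r 0.906) and uninfected 0 h replicate 2 (56.5, median r 0.899) stood further out. The second component, with 21.8%, set the replicate 3 arrays apart. The 3'/5' ratio of the Gapdh control was between 0.811 and 0.949 at 0 h and between 0.797 and 0.950 with 4-OHT. Esr1, the mouse estrogen receptor gene, served as a check of the fusion. Its level on the 3 arrays at 0 h was 7.42, 7.68 and 9.60, and with 4-OHT it was 7.41, 7.34 and 9.40. In uninfected cells its highest level was 4.65 at 0 h and 4.32 with 4-OHT, so every p53ER array lay above them. With 4-OHT, Esr1 in p53ER cells changed by -0.18 (SE 0.84). Other Esr1 probe sets were dim in p53ER cells, with means of 4.13 and 5.11 at 0 h and of 3.72 and 4.92 with 4-OHT. The probe set used was not checked against the fusion's sequence, and Trp53 is not reported here. With 3 arrays a group, precision is limited throughout.

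After 4 h with 4-OHT, 19 of 10916 genes tested differed from 0 h, 18 of them higher (limma with the replicate number as a block, adjusted p under 0.05), which is 0.174% of all genes. The higher genes were the p53 targets Pmaip1, Mdm2, Cdkn1a, Ckap2 and Phlda3, the secreted factors Lif, Il11, Vegfa, Pdgfa and Cx3cl1, and Ddit4l, Nlrc5, Btbd11, Orai2, Unc5b, Pard6g, Mark3 and Gprc5a. Trim25 was the 1 gene that fell. For each of the 19 genes the sign was the same in all 3 pairs, and for 15 of them no 4-OHT array overlapped a 0 h array. Over all genes, arrays did not overlap for 4.56% (higher) and 6.29% (lower). The 19 were chosen on these same arrays, which favours both counts, so they add no support. Without the block the count was 2, Mdm2 and Pmaip1. The 3 arrays with 4-OHT against 3 at 0 h cannot give an exact permutation p below 0.1, nor 3 pairs one below 0.25, so each call rests on the spread that the model shares across genes and arrays.

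**Figure D1:**
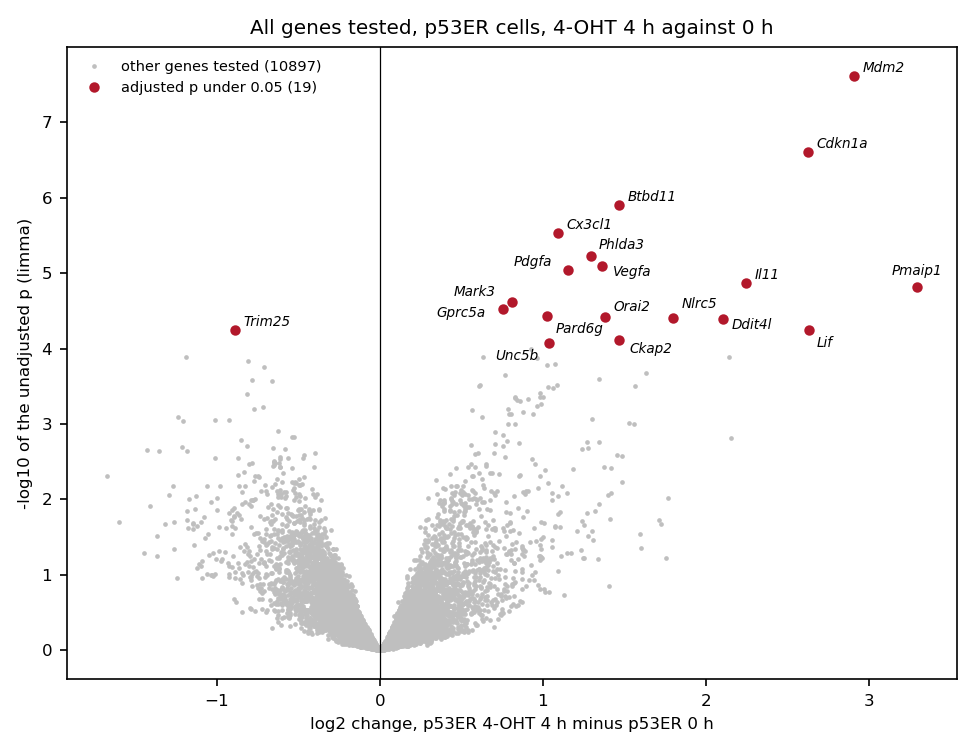
Log2 change from 0 h to 4 h with 4-OHT in p53ER cells (x axis) against minus log10 of the unadjusted limma p (y axis), each point 1 of 10916 genes. The 19 genes past an adjusted p of 0.05 are red and named; 18 lie to the right of 0, Mdm2 highest, and Trim25 lies to the left.

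At an unadjusted p under 0.05, 388 genes were higher (3.55%) and 403 lower (3.69%). The 3 arrays with 4-OHT lay above the 3 at 0 h for 498 genes (4.56%) and below them for 687 (6.29%). The median change over all genes was -0.03, and 44.9% of genes had a positive change. These shares are the background for the gene lists below.

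To show what lies upstream of the members of each kind, the 250 bases before the start of 2 p53 targets and 2 cytokine genes were read from RefSeq (GRCm38.p6), 5′ to 3′ on the strand of the gene. Each run ends at the base before the listed start of the transcript, so it holds none of that transcript's exons. Cdkn1a lies on the plus strand of chromosome 17 (chr17:29090729-29090978, 1 of its 2 listed starts) and Mdm2 on the minus strand of chromosome 10 (chr10:117710759-117711008). Il11 lies on the minus strand of chromosome 7 (chr7:4778142-4778391) and Lif on the plus strand of chromosome 11 (chr11:4257318-4257567). Capitals mark a pair of adjacent p53 decamers in Cdkn1a, a single decamer in Mdm2, and an AP-1 motif in Il11 and in Lif.
Cdkn1a: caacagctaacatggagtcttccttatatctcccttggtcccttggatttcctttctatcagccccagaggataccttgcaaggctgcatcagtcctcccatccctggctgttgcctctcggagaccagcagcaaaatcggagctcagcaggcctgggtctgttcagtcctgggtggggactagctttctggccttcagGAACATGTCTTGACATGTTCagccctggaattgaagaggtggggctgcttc
Mdm2: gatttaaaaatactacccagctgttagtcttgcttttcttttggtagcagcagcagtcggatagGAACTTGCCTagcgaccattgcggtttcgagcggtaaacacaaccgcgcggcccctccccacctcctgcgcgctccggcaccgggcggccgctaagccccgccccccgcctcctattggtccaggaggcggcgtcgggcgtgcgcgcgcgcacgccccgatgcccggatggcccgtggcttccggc
Il11: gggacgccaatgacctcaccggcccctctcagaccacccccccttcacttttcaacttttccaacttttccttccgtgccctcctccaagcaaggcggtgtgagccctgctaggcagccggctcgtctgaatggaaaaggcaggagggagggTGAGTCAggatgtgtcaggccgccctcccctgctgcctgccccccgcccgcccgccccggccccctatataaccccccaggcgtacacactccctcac
Lif: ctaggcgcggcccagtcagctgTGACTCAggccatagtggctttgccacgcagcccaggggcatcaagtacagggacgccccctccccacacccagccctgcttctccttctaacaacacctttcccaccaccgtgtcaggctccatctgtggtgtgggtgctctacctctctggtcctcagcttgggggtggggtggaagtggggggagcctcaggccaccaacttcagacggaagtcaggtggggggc
The capitals in Cdkn1a are 2 adjacent decamers of the p53 consensus with at most 1 mismatch over the 20 bases, from 51 to 32 bases before the start. Such a pair was found in 25 of 32851 mouse windows of this length (0.0761%). Mdm2 has 1 decamer with no mismatch, from 186 to 177 bases before the start. A single decamer was present in 7.13% of all windows, and among the 15 called genes with a window it was found for Cdkn1a, Ckap2, Ddit4l and Mdm2. These 15 genes had 21 windows, and a gene was counted if any of its windows held the motif. Counts of genes and shares of windows are thus in unlike units, here and for the motifs below. The AP-1 motif TGANTCA, searched on both strands, stood at 98 to 92 bases before the start of Il11 and at 228 to 222 before that of Lif. It was in 6.75% of all windows, and for Btbd11, Il11 and Lif among the 15 genes. The core ACGTG of the hypoxia response element was in 16.6% of windows and upstream of Orai2, Trim25 and Vegfa. The cyclic AMP response element TGACGTCA (1.55% of windows) and the STAT motif TTCNNNGAA (7.02%) were upstream of none of the 15. A motif match describes the letters of the window and does not show binding.

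Mdm2, whose product is the ubiquitin ligase that degrades p53, was at 7.45, 7.52 and 7.86 on the 0 h arrays and at 10.21, 10.09 and 11.26 with 4-OHT. All 3 arrays with 4-OHT were far above the 0 h range. Mdm2 rose 7.51-fold (log2 change 2.91, SE 0.27, limma adjusted p = 0.000264), and a second probe set gave 3.08 (SE 0.27), while the remaining one, near the floor, gave 0.66 (SE 0.54). It passed the threshold in 19 of 19 alternative settings, with changes between 2.67 and 3.11. Of the 7 tested genes that act in negative feedback on p53, 5 had a positive change, 2 had an unadjusted p under 0.05 and 1, Mdm2, passed the threshold. The median was 0.19. Ccng1, which encodes cyclin G1, stood at 1.77 (SE 0.57) without passing (adjusted p = 0.43), with no overlap between its arrays.

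Among the targets that arrest growth, Cdkn1a, Phlda3 and Ckap2 rose. Cdkn1a encodes p21, the inhibitor of cyclin-dependent kinases. It was at 7.72, 6.93 and 8.63 at 0 h and at 9.77, 10.17 and 11.24 with 4-OHT. No array overlapped the other group, and the rise was 6.19-fold (2.63, SE 0.29, limma adjusted p = 0.00137). A second probe set gave 2.38. Phlda3, a repressor of the kinase Akt, went from 8.88, 9.18 and 9.92 to 10.40, 10.51 and 10.96, a rise of 1.29 (SE 0.19, adjusted p = 0.0128). Its highest 0 h array, replicate 3, was below its lowest 4-OHT array. Ckap2, which encodes a spindle protein, was at 8.29, 8.33 and 7.53 at 0 h and at 9.39, 9.13 and 10.03 with 4-OHT. Its rise of 1.47 (SE 0.27, adjusted p = 0.0472) was close to the threshold, and its pairs ranged from 0.80 to 2.50.

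Of the 18 growth arrest targets tested, 15 had a positive change and 9 were higher at an unadjusted p under 0.05, with none lower. The median was 0.52, against -0.03 for all genes. The pairs gave medians of 0.13, 0.57 and 0.66. Btg2, an antiproliferative factor (1.03, SE 0.21, adjusted p = 0.0667), and Ddit4, which restrains mTORC1 (1.00, SE 0.23, adjusted p = 0.109), came next in order of p. Gtse1, Zmat3 and Rap2b had changes of 0.98, 0.90 and 0.76 and did not pass.

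Pmaip1 encodes Noxa, a BH3-only protein that promotes apoptosis. It was at 4.94, 4.78 and 3.88 on the 0 h arrays and at 7.14, 7.64 and 8.71 with 4-OHT. Its groups were well apart, and replicate 3 held both the lowest 0 h and the highest 4-OHT array. The rise was 9.80-fold (3.29, SE 0.53, limma adjusted p = 0.0187). Genes were kept for testing by their mean over all 18 arrays, with a lowest mean of 4.74. Pmaip1 was above this only through its p53ER 4-OHT arrays, so the filter favoured its call. Since its 0 h level was low, the size depended on the offset, with 2.74 for a larger offset and 3.57 for none, and in the latter case the adjusted p was 0.082. Without 0 h replicate 3 the change was 2.79 (adjusted p = 0.143), and without 4-OHT replicate 3 it was 2.87 (0.258).

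The cell death list had 17 genes tested, of which 12 had a positive change, 6 were higher and 1 lower at an unadjusted p under 0.05, and Pmaip1 alone passed the threshold. The median was 0.44, with 0.40, 0.20 and 0.41 in the pairs. Trp53inp1, a stress protein that acts with p53, had a change of 2.15 (SE 0.55, adjusted p = 0.223). Perp, a membrane protein of desmosomes, had 1.49 (SE 0.40), Pidd1 0.88 and Ei24 0.68, none of them past the threshold. The lower gene was Bid at -0.34, which also did not pass.

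Ddit4l and Nlrc5 rose too. Ddit4l is a paralogue of Ddit4 that inhibits mTORC1. It was at 5.49, 5.52 and 6.25 at 0 h and at 6.94, 7.07 and 9.58 with 4-OHT (2.11, SE 0.37, limma adjusted p = 0.0293). Its 2 other probe sets gave 1.69 and 1.79. Nlrc5, a regulator of MHC class I genes, went from 5.14, 4.95 and 5.32 to 6.67, 6.25 and 7.90 (1.80, SE 0.32, adjusted p = 0.0293). In both genes the groups did not overlap and replicate 3 had the largest rise. They stood in the list of p53 targets in repair and metabolism because earlier results of these arrays had named them, and neither is known for such a role. That list had 10 of 14 genes with a positive change and a median of 0.31, and no gene but these 2 had an unadjusted p under 0.05.

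Among secreted factors, the cytokines Il11 and Lif rose. Il11 was at 5.78, 5.83 and 6.93 on the 0 h arrays and at 8.05, 8.22 and 9.02 with 4-OHT, with no overlap. The rise was 4.76-fold (2.25, SE 0.34, limma adjusted p = 0.0186), and the pairs were close, from 2.09 to 2.39. Lif was at 6.36, 6.01 and 8.16 at 0 h and at 7.93, 9.30 and 11.19 with 4-OHT. The 4-OHT replicate 1 array was below the 0 h replicate 3 array, so the groups overlapped, while each pair rose by 1.57 to 3.29. The rise of Lif was 6.20-fold (2.63, SE 0.44, adjusted p = 0.0368), and its second probe set gave 1.78. Without the block the adjusted p was 0.681 for Il11 and 0.999 for Lif.

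Vegfa and Pdgfa, growth factors of endothelial and of mesenchymal cells, also rose. Vegfa was at 6.48, 6.95 and 7.65 at 0 h and at 7.64, 8.16 and 9.37 with 4-OHT, overlapping by 1 array (1.36, SE 0.21, limma adjusted p = 0.014). Pdgfa went from 6.45, 6.91 and 6.87 to 7.69, 7.78 and 8.23, with no overlap (1.15, SE 0.18, adjusted p = 0.014). The second probe set of Vegfa gave 1.31 and that of Pdgfa 0.83. Of the 22 genes tested in the list of interleukin-6 family cytokines and secreted growth factors, 17 had a positive change, 8 were higher at an unadjusted p under 0.05 and none lower. The median was 0.38, and the pairs gave 0.34, 0.57 and 0.66. Fgf2 (1.35, adjusted p = 0.0885), Hbegf (0.83), Pdgfb (1.10) and Ereg (1.73), ligands of growth factor receptors, did not pass.

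Genes on the receiving side of these cytokines did not pass. The list of interleukin-6 family receptors and STAT3 targets had a median of -0.06 over 15 genes, 7 of them positive, with 1 higher and 2 lower at an unadjusted p under 0.05. Socs1, an inhibitor of cytokine signalling, had a change of 0.58 (SE 0.24), Cebpd, a transcription factor induced by STAT3, had -0.85 (SE 0.28), and Stat3 itself had -0.37.

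Cx3cl1, the chemokine fractalkine, was at 7.35, 7.60 and 9.55 at 0 h and at 8.26, 8.85 and 10.67 with 4-OHT. Replicate 3 was higher than the other 2 in both groups by more than the change itself, so the groups overlapped. Within pairs Cx3cl1 rose by 0.91, 1.25 and 1.12 (fit 1.09, SE 0.15, limma adjusted p = 0.00803), and without the block the adjusted p was 0.999. A dimmer probe set of Cx3cl1 gave 0.63 and did not pass. The median of the 13 chemokines tested was 0.01, and 4 were higher at an unadjusted p under 0.05. Ccl2 (1.18), Cxcl2 (1.41) and Ccl7 (0.58) were the other 3, and none of them passed.

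**Figure D2:**
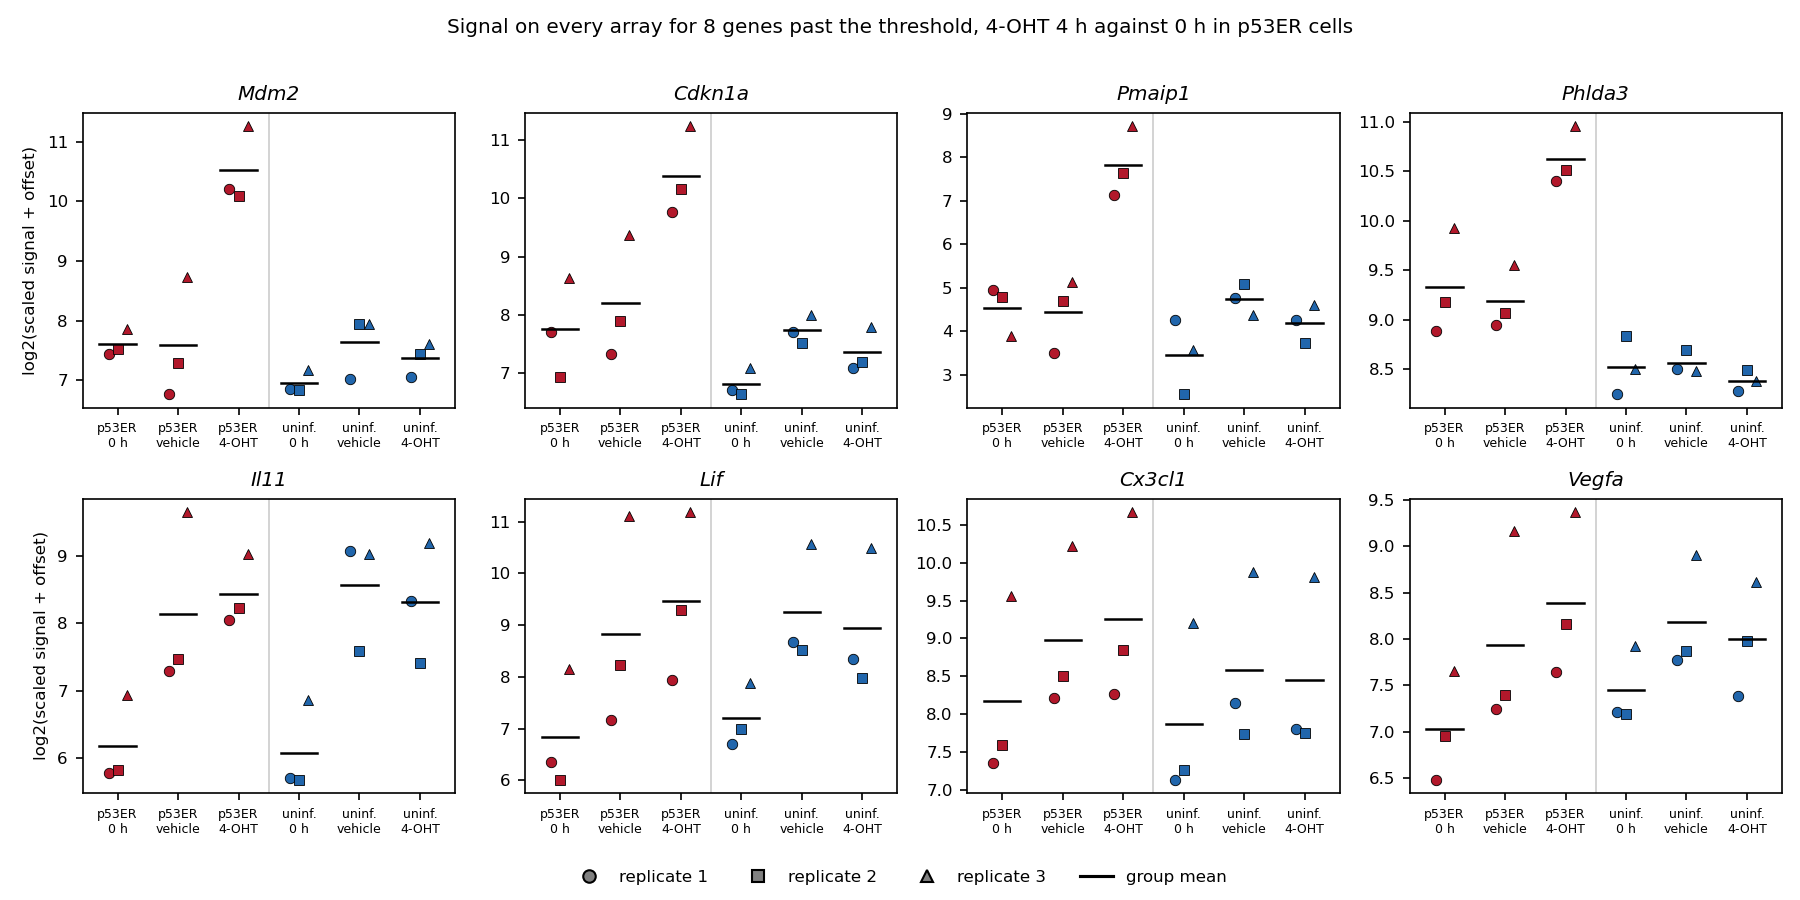
Log2 signal of 8 genes on every array (y axis) in the 6 groups of 3 (x axis), red for p53ER and blue for uninfected cells, with symbols for the replicate number and bars at group means. Mdm2, Cdkn1a, Pmaip1 and Phlda3 have their highest mean in p53ER cells with 4-OHT. Without 4-OHT, Phlda3 is also higher in p53ER cells (means 9.33 at 0 h and 9.19 with vehicle) than in uninfected cells (8.52 and 8.56). Il11, Lif, Cx3cl1 and Vegfa have mean levels above 0 h in all the groups cultured for 4 h.

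The other 6 higher genes had changes between 0.76 and 1.47. Btbd11, a BTB domain gene, went from 6.26, 6.25 and 7.30 to 7.53, 7.61 and 9.09 (1.47, SE 0.19, limma adjusted p = 0.00456). Its lowest 4-OHT array was just above its highest 0 h array. Orai2, a subunit of store-operated calcium channels, went from 6.98, 6.71 and 7.41 to 8.35, 8.05 and 8.85 (1.38, SE 0.24), with pairs from 1.34 to 1.44. Unc5b, a netrin receptor, rose by 1.04 (SE 0.20), Pard6g, a polarity protein, by 1.03 (SE 0.18), Mark3, a kinase of microtubule-associated proteins, by 0.81 (SE 0.14), and Gprc5a, an orphan receptor induced by retinoic acid, by 0.76 (SE 0.13). Unc5b had an adjusted p of 0.0483, the closest to the threshold. The groups overlapped for Gprc5a and were apart for the others.

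Replicate 3 was often the highest array for these genes. Of the 18 that rose, 17 had their highest 4-OHT array in replicate 3, against 35.6% of all genes, and 13 had their highest 0 h array there, against 43.5%. Without 4-OHT replicate 3 the count of calls fell from 19 to 2, Mdm2 and Cdkn1a. The changes of the 19 genes were then 0.731 to 1.06 times those with all arrays. Without 0 h replicate 3, the array that stood apart, 7 genes passed, of which 5 were among the 19: Mdm2, Cdkn1a, Phlda3, Btbd11 and Cx3cl1. Changes of the 19 genes were then 0.799 to 1.18 times those with all arrays. Leaving out any 1 of the 6 arrays gave from 2 to 20 calls, with 5 without 0 h replicate 1 (Mdm2, Cdkn1a, Btbd11, Uaca and Ugdh), 7 without 0 h replicate 2, 20 without 4-OHT replicate 1 and 6 without 4-OHT replicate 2.

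The same 4 h with 4-OHT in uninfected cells, read on other arrays, asks whether the changes also occur without p53ER. There, no gene passed the threshold (limma, smallest adjusted p = 0.162, Il11), while 824 had an unadjusted p under 0.05 (7.55%). For the 19 genes the change in uninfected cells ran from -0.45 to 2.23. Mdm2 changed by 0.41 in uninfected cells, Cdkn1a by 0.54, Pmaip1 by 0.74, Phlda3 by -0.14, Ddit4l by -0.15 and Nlrc5 by -0.45. Il11 was at 5.70, 5.68 and 6.86 in uninfected cells at 0 h and at 8.33, 7.42 and 9.19 with 4-OHT, and Lif at 6.70, 7.0 and 7.89 and at 8.35, 7.98 and 10.49. For both cytokines the uninfected 4-OHT arrays lay above the uninfected 0 h arrays, and the changes were 2.23 (SE 0.34) and 1.74 (SE 0.44). Next to Il11, the smallest p in uninfected cells belonged to Slc16a9, Atp5k, Ctps and Rgs2, with changes of 1.03, -0.78, -0.48 and 0.82 there and of 0.52, -0.00, -0.15 and 0.27 in p53ER cells.

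The difference of the change between p53ER and uninfected cells passed the threshold for no gene (limma, smallest adjusted p = 0.122, Mdm2), and 346 genes had an unadjusted p under 0.05 (3.17%). Of the 19 genes, 14 were among those 346, a count that the choice of the 19 favours, since the difference contains the same p53ER change. The difference was 2.50 (SE 0.39) for Mdm2, 2.56 (SE 0.75) for Pmaip1, 2.09 (SE 0.41) for Cdkn1a, 1.44 (SE 0.27) for Phlda3, 2.25 (SE 0.45) for Nlrc5 and 2.26 (SE 0.53) for Ddit4l. Pdgfa, whose change in uninfected cells was -0.00, differed by 1.15 (SE 0.25). Il11 differed by 0.02 (SE 0.48) and Lif by 0.89 (SE 0.62), with unadjusted p of 0.97 and 0.178, so a difference was not detectable with these arrays. Mdm2 passed for the difference after quantile normalization, and 2 of its probe sets did when all probe sets were tested. Over all 10916 genes, the change in p53ER cells and that in uninfected cells had a correlation of 0.303 across genes, which are not independent replicates. Within replicate numbers it was 0.0925, 0.0357 and 0.212.

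The p53ER cells with 4 h of vehicle split the total change into a culture step and a 4-OHT step. They share the 0 h arrays with the former and the 4-OHT arrays with the latter, so the values stand side by side and are no independent evidence. Against vehicle 8 genes passed (0.0733%), all higher, of which 7 were among the 19: Pmaip1, Mdm2, Cdkn1a, Ddit4l, Nlrc5, Btbd11 and Phlda3. The other was Zfp365. From 0 h to vehicle no gene passed (limma, smallest adjusted p = 0.219), and 570 had an unadjusted p under 0.05 (5.22%). Of the 19 genes, 12 had the larger part of their change against vehicle and 7 had it between 0 h and vehicle: Lif, Il11, Vegfa, Pdgfa, Cx3cl1, Gprc5a and Trim25.

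Mdm2 changed by -0.01 (SE 0.27) from 0 h to vehicle and by 2.92 from vehicle to 4-OHT, Pmaip1 by -0.09 (SE 0.53) and 3.38, and Ckap2 by 0.00 (SE 0.27) and 1.47. Their vehicle arrays stood at 6.77, 7.30 and 8.73, at 3.50, 4.685 and 5.14, and at 7.76, 8.40 and 7.99. In each of these genes vehicle replicate 1, an array that stood apart, was below its 0 h pair and replicate 3 was above, so the small means hide unlike pairs. Cdkn1a changed by 0.44 and 2.19. Il11 changed by 1.95 from 0 h to vehicle and by 0.30 from vehicle to 4-OHT. Its vehicle arrays stood at 7.29, 7.47 and 9.65, overlapping the 4-OHT arrays and above the 0 h arrays. Lif changed by 1.99 and 0.64, Vegfa by 0.91 and 0.45, Pdgfa by 0.85 and 0.30, Cx3cl1 by 0.81 and 0.28, and Gprc5a by 0.67 and 0.08. Orai2, with 0.65 and 0.73, was near the middle.

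**Figure D3:**
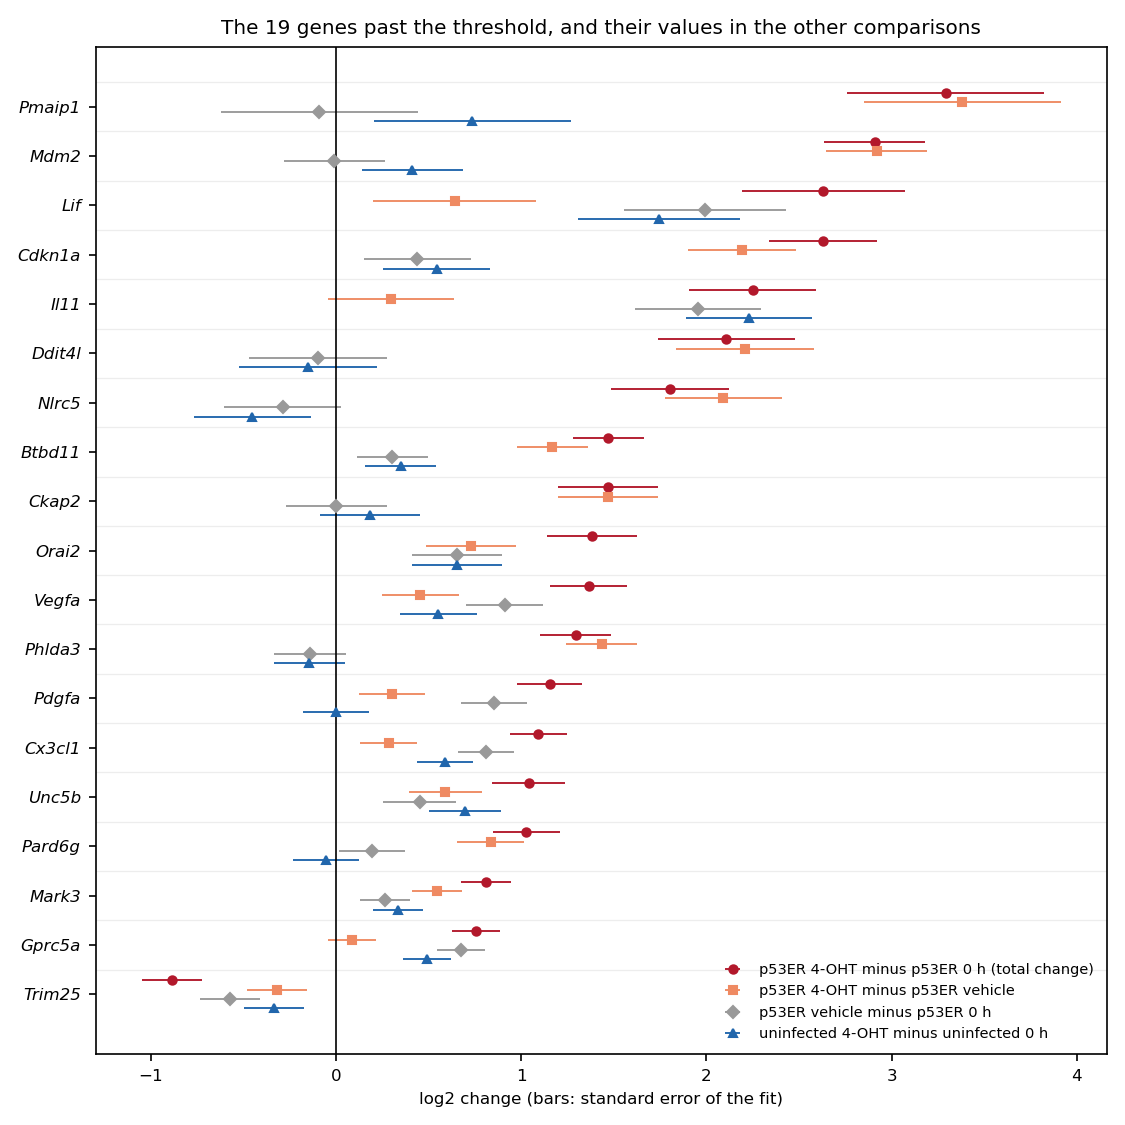
Log2 change (x axis) with its standard error for the 19 genes past the threshold (y axis, ordered by total change) in 4 comparisons: total change, 4-OHT against vehicle, vehicle against 0 h, and 4-OHT against 0 h in uninfected cells. For Mdm2, Pmaip1 and Ckap2 the vehicle step is near 0 as a mean, with replicate 1 below its 0 h pair and replicate 3 above. For Il11 the vehicle step of 1.95 and the uninfected change of 2.23 lie close to the total of 2.25.

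Zfp365, the mouse form of the gene in the study's title, was at 5.20, 4.16 and 5.28 on the 0 h arrays and at 6.36, 6.11 and 6.87 with 4-OHT. Its groups did not overlap, yet the change of 1.57 (SE 0.34) did not pass (limma adjusted p = 0.0933), and in uninfected cells it was -0.14. Like Pmaip1, Zfp365 was above the lowest mean tested (4.74) only through its p53ER 4-OHT arrays. The filter thus favoured the lack of overlap and the rise against vehicle. A second probe set of Zfp365 gave 2.49 (SE 0.55). Against vehicle its change was 2.0 (adjusted p = 0.0379). The vehicle arrays stood at 4.54, 3.36 and 5.46, of which replicates 1 and 2 were below their 0 h pairs and replicate 3 above.

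Feedback regulators of MAP kinase signalling and targets of NRF2 and the aryl hydrocarbon receptor had positive medians with no gene past the threshold. Of 13 MAP kinase feedback genes, 11 had a positive change and 6 were higher at an unadjusted p under 0.05, with a median of 0.62 and pairs of 0.27, 0.52 and 0.79. Errfi1, an inhibitor of the EGF receptor, had 0.88 (SE 0.21, adjusted p = 0.136), Dusp5 0.93 and Dusp6 0.86, both phosphatases of ERK. In uninfected cells the median of this list was 0.19. Within p53ER cells it was 0.38 from 0 h to vehicle, with 4 higher and 1 lower at an unadjusted p under 0.05. From vehicle to 4-OHT it was 0.18, with 0 genes at that p. Of 13 targets of NRF2 and the aryl hydrocarbon receptor, 10 had a positive change and 6 an unadjusted p under 0.05, all higher, with a median of 0.37 against 0.41 in uninfected cells. Cyp1a1, a monooxygenase, had 1.34, Hmox1, heme oxygenase, 1.15 and Txnrd1, thioredoxin reductase, 0.72. Immediate early genes had a median of 0.18 over 25 genes, with 4 higher and 2 lower at that p. Junb had 0.98 (SE 0.22, adjusted p = 0.105) and Dusp1 -0.49 (SE 0.16).

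The list medians of uninfected cells give a second reading of the p53 and cytokine lists. They were -0.03 for growth arrest targets, -0.01 for cell death targets and -0.14 for the repair and metabolism list, against 0.52, 0.44 and 0.31 in p53ER cells. The negative feedback list had 0.20 in uninfected cells and 0.19 in p53ER cells. For interleukin-6 family cytokines and growth factors the median was 0.34 in uninfected cells and 0.38 in p53ER cells. Within p53ER cells this list had a median of 0.23 from 0 h to vehicle, with 13 of 22 genes positive, and of 0.31 from vehicle to 4-OHT, with 20 of 22 positive. Of all genes tested, 49.5% had a positive difference between p53ER and uninfected cells, and 3.17% an unadjusted p under 0.05 for it in either direction. Of the 18 growth arrest targets, 17 had a positive difference, 8 of them at an unadjusted p under 0.05. Of the 22 cytokines and growth factors, 14 had a positive difference and 2 of them had that p.

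**Figure D4:**
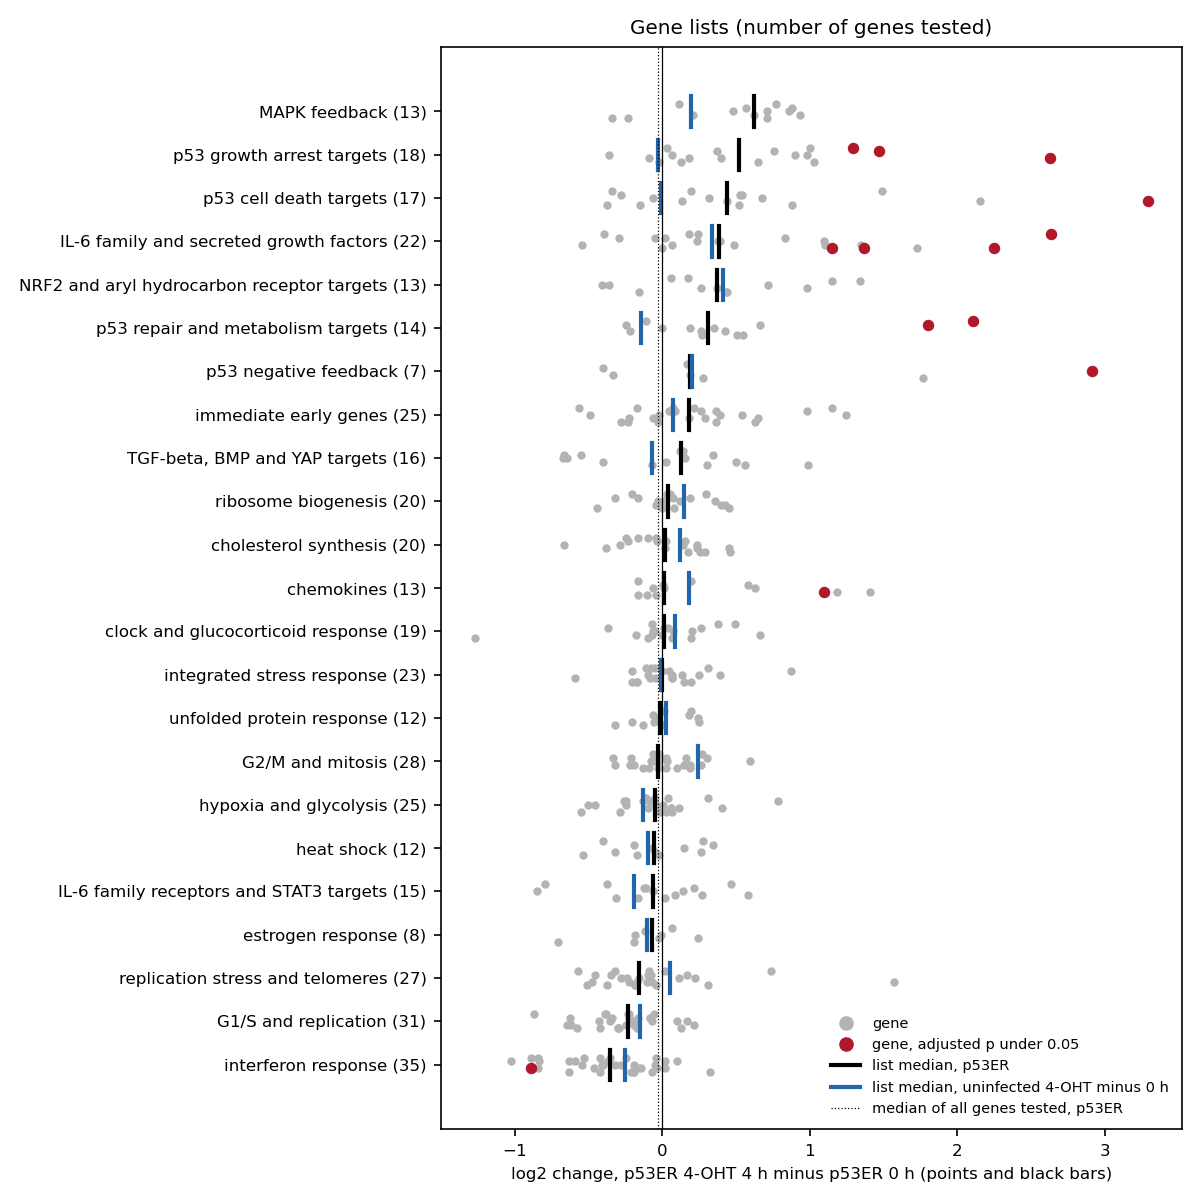
Log2 change from 0 h to 4 h with 4-OHT in p53ER cells (x axis) for each tested gene of 23 lists (rows, with the number of genes), red where past the threshold. Black bars are list medians in p53ER cells, blue bars those in uninfected cells and the dotted line the median of all genes. The growth arrest and cell death lists have p53ER medians of 0.52 and 0.44 and uninfected medians near 0, while the cytokine and the NRF2 lists have like medians in both.

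Trim25 fell. It encodes a ubiquitin ligase that activates the RNA sensor RIG-I and is itself induced by interferon. Its 0 h arrays were at 8.03, 8.07 and 8.32 and its 4-OHT arrays at 7.29, 7.20 and 7.26, with no overlap and a narrow range in each group (-0.89, SE 0.16, limma adjusted p = 0.0368). The vehicle arrays lay between at 7.96, 7.39 and 7.36, and Trim25 changed by -0.34 in uninfected cells. Its 2 other probe sets gave -0.63 and -0.19. In bulk RNA, fewer cells with a transcript and less of it per cell cannot be told apart.

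The interferon response list, to which Trim25 belongs, had a negative change in all but 4 of its 35 tested genes and a median of -0.36, with -0.20, -0.43 and -0.52 in the pairs. At an unadjusted p under 0.05, 5 genes were lower and none higher. The transcription factors Irf9 (-0.83, SE 0.25) and Stat2 (-0.89, SE 0.33), which together mediate type I interferon signalling, did not pass. The medians of this list were -0.36 from 0 h to vehicle, -0.01 from vehicle to 4-OHT and -0.26 in uninfected cells with 4-OHT.

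Genes of the G1/S transition and of DNA replication had a median of -0.23 over 31 genes, 4 of them positive, with -0.26, -0.23 and -0.29 in the pairs. None passed the threshold, and 6 were lower and none higher at an unadjusted p under 0.05. Among these were the licensing factors Cdc6 (-0.87, SE 0.26) and Cdt1 (-0.62, SE 0.18) and the cyclin Ccne1 (-0.65, SE 0.19). The median was -0.15 in uninfected cells. Within p53ER cells it was -0.08 from 0 h to vehicle, with 1 lower and 0 higher at an unadjusted p under 0.05. From vehicle to 4-OHT it was -0.21, with 5 lower and 0 higher. Mitotic genes had a median of -0.03 over 28 genes, with none at that p in either direction. Genes of replication stress and telomeres had -0.16 over 27 genes, with 2 higher, Zfp365 and Tnks2, and 2 lower, Rpa2 and Timeless. In uninfected cells the medians were 0.24 for mitotic genes, with 23 of 28 positive, and 0.05 for replication stress. The difference between p53ER and uninfected cells was positive for 3 of 28 mitotic genes (median -0.20) and 9 of 27 replication stress genes (-0.22). Of all genes tested, 49.5% had a positive difference.

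The other lists had medians between -0.07 and 0.13, apart from marker lists of few genes. They were 0.13 for TGF-beta, BMP and YAP targets (Pmepa1 0.99, Id2 -0.65), 0.01 for clock and glucocorticoid genes (Dbp -1.27, Bhlhe40 0.66) and -0.05 for hypoxia and glycolysis (Slc2a1 0.79, Ndrg1 0.40). Medians were -0.00 for the integrated stress response (Ddit3 0.39, Vldlr -0.59), -0.02 for the unfolded protein response (Hspa5 0.24, Edem1 0.19), 0.02 for cholesterol synthesis (Hsd17b7 0.45, Msmo1 0.29), 0.04 for ribosome biogenesis (Ddx21 0.40, Utp20 0.36), -0.06 for heat shock (Hspa1b -0.54, Hsph1 -0.32) and -0.07 for estrogen response genes (Ccn5 -0.71, Stc2 0.24). No gene of these lists passed the threshold, nor did any marker of mesenchymal, epithelial, blood, endothelial, muscle or neural cells. All 9 mesenchymal markers (median -0.05, Col1a1 -0.33, Col1a2 -0.19) and all 4 neural markers (median 0.16, Gfap 1.17, Sox10 -0.45) were bright enough to be tested. So were 3 of 4 muscle markers (median 0.22, Des 0.27, Acta1 0.22) and 3 of 6 epithelial ones (Krt8 -1.18, Epcam -0.38). Dimmer probe sets went the other way, with -0.65 and -0.77 for Gfap and 0.03 and 0.33 for Krt8. Of blood markers 3 of 6 were tested, with 5 on the array (Lyz2 -0.42, Csf1r -0.20). Of endothelial markers 2 of 5 were tested (Kdr -0.11, Flt1 0.08).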

How the data were processed

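The authors deposited linear signal intensities made with MAS5, per the submitters' processing notes, with a software version not given in the sources used here. The 18 arrays were brought to the same 2% trimmed mean (82.7) and taken to log2 after an offset of 4.13 (5% of that mean) was added. Of 45101 probe sets, 34958 had 1 gene in the platform annotation, 932 several and 9211 no listed gene, and 34754 were matched to RefSeq by Entrez ID. Each of 18194 genes was read by its brightest probe set over all 18 arrays. The upper 60% by mean over these arrays, 10916 genes, were tested. A dim gene that is high in 1 group can thus be kept through that group.

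A model of 6 groups with the replicate number as a block was fitted to all 18 arrays with limma (10 residual degrees of freedom, trended and robust prior), two-sided, with Benjamini-Hochberg adjustment over all genes and a threshold of 0.05. The block was used because the comparison was defined as paired. What the numbers stand for is not labelled. Deviations from the group means correlated within numbers at 0.300, 0.271 and 0.467 in p53ER cells and at 0.388, 0.0805 and 0.407 in uninfected cells. The pipeline was tested on simulated data.

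The comparison and 29 gene lists (524 genes, 457 tested) were chosen with earlier results of these data known, so counts are a description. Named were every gene past the threshold, Mdm2, Pmaip1, Lif, Il11, Zfp365 and Esr1, from each list up to 4 genes past it or else the 2 with the smallest p, and the 5 smallest p of the uninfected comparison and of the difference. Other list genes were named after their values were seen. Promoter windows from RefSeq (GRCm38.p6) were found for 15 of the 19 genes. Alternatives were quantile normalization, other offsets and filters, all probe sets, no block, fewer arrays in the fit, another variance prior, array weights and arrays left out. The software was limma 3.58.1 with statmod 1.5.0 and data.table (1.17.8) in R 4.3.3, and matplotlib 3.10.9.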

Additional observations from a re-analysis of the deposited data

How the results depend on the processing

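The 19 genes past the threshold became 2 with no replicate block (Mdm2 and Pmaip1, with 452 at an unadjusted p under 0.05), 7 with the 9 p53ER arrays alone, 49 with the 6 arrays compared alone, 11 with a variance prior without trend and robustness, 57 with array weights (84.2% higher, against 94.7% in the fit reported) and 3 without replicate 3 of every group. Leaving out each array in turn gave 2 to 20. The cause of these shifts was not tested. Mdm2 passed in 19 of 19 settings and Cdkn1a in 18, the exception being no block (limma adjusted p = 0.119). Without the 3 arrays that stand apart (p53ER 0 h replicate 3, p53ER vehicle replicate 1 and uninfected 0 h replicate 2) 26 genes passed, 13 of them among the 19, and in uninfected cells 1 did (Psrc1). For the difference, 1 passed with quantile normalization and 2 with all probe sets.

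Over 358 settings of the 19 genes 147 lost the call and 0 changed sign. Genes that did not pass changed sign in 21 settings. With array weights Atp5k was at 0.016, and without the 3 arrays it was at 0.094 and Esr1 at 0.34. With 1 array or replicate 3 of every group left out, the changes ran from -0.14 to 0.49 for Acta1, -0.16 to 0.14 for Atp5k, -0.69 to 0.038 for Cdc25b, -0.051 to 0.65 for Des, -0.077 to 0.34 for Edem1, -0.67 to 0.31 for Esr1, -0.19 to 0.23 for Flt1, -0.27 to 0.086 for Kdr, -0.022 to 0.62 for Kif23 and -0.76 to 0.13 for Lyz2. The median kept its sign in all settings for 12 of 29 lists, among them the p53, cytokine, MAP kinase feedback, NRF2, interferon and G1/S lists. Pmaip1, with a low signal at 0 h, had a limma adjusted p of 0.082 with no offset.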
